A study of Danio rerio with 12 samples.

Results

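The genes described here are the integrin subunits and laminin chains of the zebrafish, with 50 members among the 25473 gene identifiers of the deposited table. A gene was a member when its annotated name began with itga or itgb and a number or letter code, other than the itgb1bp genes, or with lama, lamb or lamc and a number. The rule reads names and no measured value, but this group of genes was picked for description with earlier results of these data known. It gave 22 integrin alpha, 12 integrin beta, 5 laminin alpha, 6 laminin beta and 3 laminin gamma genes. It also gave 2 genes that encode no subunit, ITGBL1 (a secreted protein with integrin-like repeats) and itgb3bp (known in human cells as a centromere protein), which are described apart.

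Polyadenylated RNA was sequenced from zebrafish larvae at 3 days post-fertilization (dpf). The groups were wild type (labelled WT), larvae homozygous mutant for yap (labelled YapKO, genotype Yap-/-) and larvae homozygous mutant for both yap and taz (labelled YapTazKO, genotype Yap-/-,Taz-/-), with 4 libraries each. Yap and Taz are transcriptional co-activators that are held back by the kinases of the Hippo pathway. The labels do not state the kind of mutation, the fish strain or the number of larvae in a library.

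Integrins are receptors made of 1 alpha and 1 beta subunit that join the matrix outside a cell to the actin cytoskeleton or intermediate filaments inside it. The alpha subunit largely sets the ligand: some subunits bind collagens, some bind laminins, some bind the RGD motif of fibronectin and vitronectin, and others are carried by leukocytes. Laminins are trimers of 1 alpha, 1 beta and 1 gamma chain and form the sheet on which a basement membrane is built. In fish larvae they are known from work on the notochord, muscle attachment, blood vessels and the fin fold.

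Total counts ranged from 7028251 to 8657381 per library. A count of 0 allows up to 3 counts, which amount to 0.347 to 0.427 CPM (counts scaled to a common library size), and such floors cover counting error only. YAP1 (ENSDARG00000068401) stood at 78.3 to 97.8 CPM in WT, 51.7 to 69.8 CPM in YapKO and 64.6 to 73.1 CPM in YapTazKO. WWTR1 (ENSDARG00000067719), which encodes Taz, stood at 5.4 to 8.34, 9.22 to 11.4 and 4.48 to 6.61 CPM in the same order. Every mutant library thus lay below WT for YAP1, and every YapTazKO library lay below every YapKO library for WWTR1. Against WT, however, WWTR1 overlapped in YapTazKO and was higher in every YapKO library. YapKO 3 stood nearest to WT among the mutant libraries on the first principal component of all genes, at -16 where the other 3 YapKO libraries were at -4.1 to 21.2 and WT at -48.6 to -27.4. The labelled material is larvae, and markers of skeletal muscle, epidermis, myeloid cells, thrombocytes, endothelium, neurons, notochord, liver and lens were all detected. In such bulk RNA, fewer cells of a type and less RNA per cell cannot be told apart.

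Of the 50 members, 48 had enough counts to be tested. The 2 left out were integrin genes: itga2b (ENSDARG00000018687), the thrombocyte alpha subunit, with at most 11 counts in a library, and itgam.2 (ENSDARG00000096587), with at most 9. In YapKO against WT 11 members rose and 0 fell at an adjusted p under 0.05 (edgeR quasi-likelihood test), where 9.13% of the 19493 genes tested were called, 5.72% higher and 3.41% lower. At an unadjusted p under 0.05 the counts were 19 higher and 3 lower, beside 2733 and 2249 of all genes tested. DESeq2 called 13 higher and 0 lower, beside 1123 and 812 of the same genes. With the replicate number added to the model as a block, 14 members were higher and 1 (lama3) lower, beside 1561 and 1197 of all genes. In YapTazKO against WT 16 members rose and 5 fell, where 27.7% of all genes were called, 13.9% higher and 13.8% lower. In YapTazKO against YapKO 4 members rose and 0 fell, where 4.18% of all genes were called, 1.92% higher and 2.26% lower. In that comparison 6 members were higher and 8 lower at an unadjusted p under 0.05, beside 1746 and 1868 of all genes tested. DESeq2 called 4 higher and 3 lower there, beside 486 and 562 of the same genes.

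In YapKO 7 members lay wholly above WT and 1 wholly below, where 7.93% and 5.36% of all genes did so. In YapTazKO these counts were 16 and 5 against WT (14.5% and 14.4% of all genes), and against YapKO 4 and 2 (5.28% and 5.53%).

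In all, 23 members were called in at least 1 comparison and 25 in none. Of those called against WT in the fit without a replicate block, 9 were higher in both mutants. In that fit 2 were called in YapKO only and 12 in YapTazKO only. Both comparisons used the same WT libraries. The median log2 fold change of the 48 members was 0.22 in YapKO and 0.17 in YapTazKO, beside 0.004 and 0.008 over all genes tested. Between the mutants it was -0.12, beside -0.001 over all genes.

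**Figure D1:**
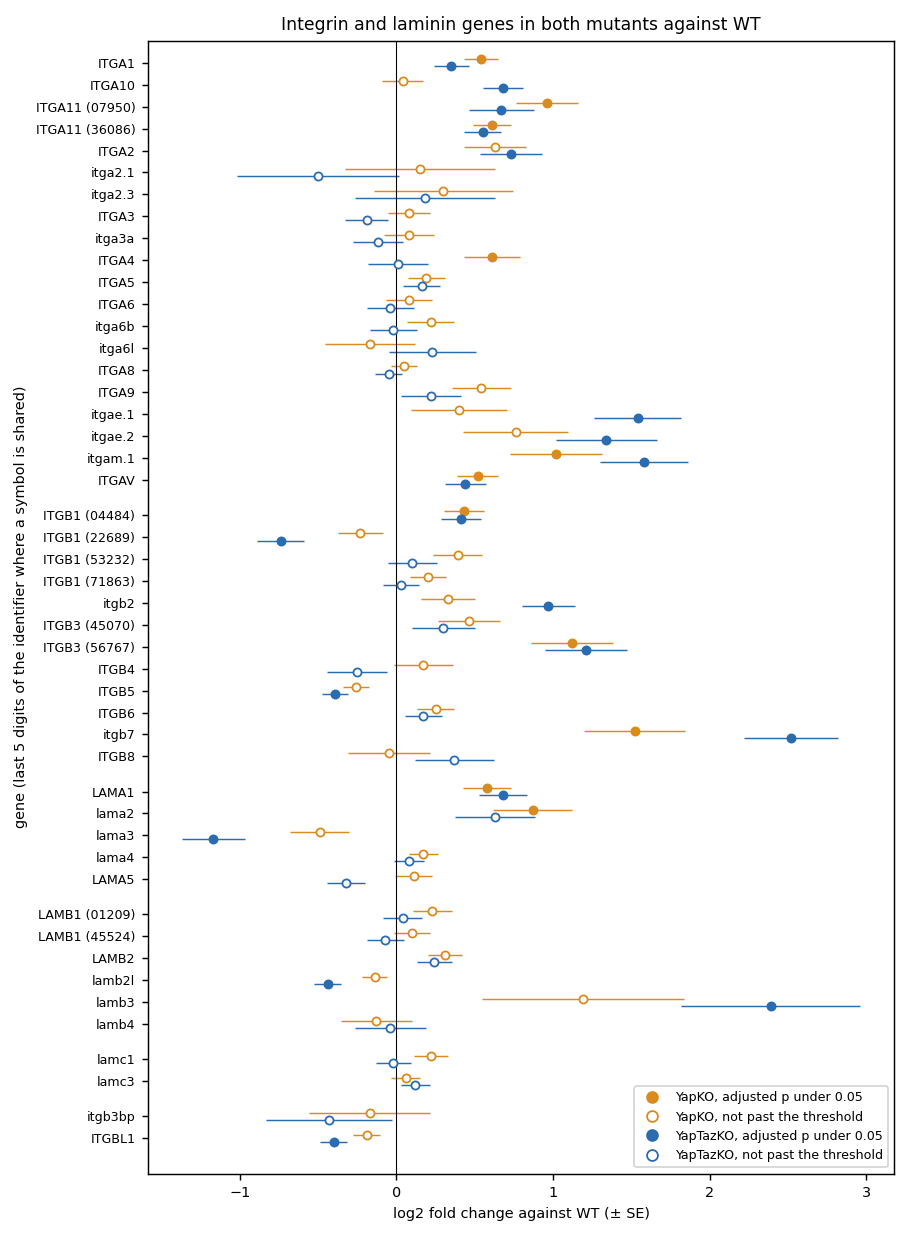
Log2 fold change against WT (± SE, 12 libraries in 1 model) of 47 of the tested members, in blocks of integrin alpha, integrin beta, laminin alpha, laminin beta and laminin gamma chains and the 2 genes that encode no subunit, for YapKO and YapTazKO. Filled points passed an adjusted p of 0.05: 11 in YapKO, all to the right of 0, and in YapTazKO 15 to the right and 5 to the left.

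The counts in YapKO moved with single libraries. YapKO 3 was the lowest of its group for 10 of the 11 members called there. Without it 17 members were called, all higher, the 11 and among the others LAMB2, ITGA9, lamc1, ITGB1 (ENSDARG00000053232) and ITGA2. Without YapKO 1 or without YapKO 4 the count was 4, without WT 2 or WT 3 it was 6, and without WT 1 or YapTazKO 4 it was 7. Over the whole table the 1780 genes called became 3041 without YapKO 3, 942 without YapKO 1 and 954 without YapKO 4. They became 1076 without WT 2, 1059 without WT 3, 1320 without WT 1 and 1636 without YapTazKO 4. Between the mutants the count of 4 members fell to 2 without YapKO 1, YapKO 2 or YapTazKO 1 and to 1 without YapTazKO 2 or YapTazKO 4. The 814 genes called there over the whole table became 643, 468, 635, 441 and 497 in these fits, in that order. In YapTazKO against WT the count of members called stayed between 16 and 22 under every alternative tried.

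**Figure D2:**
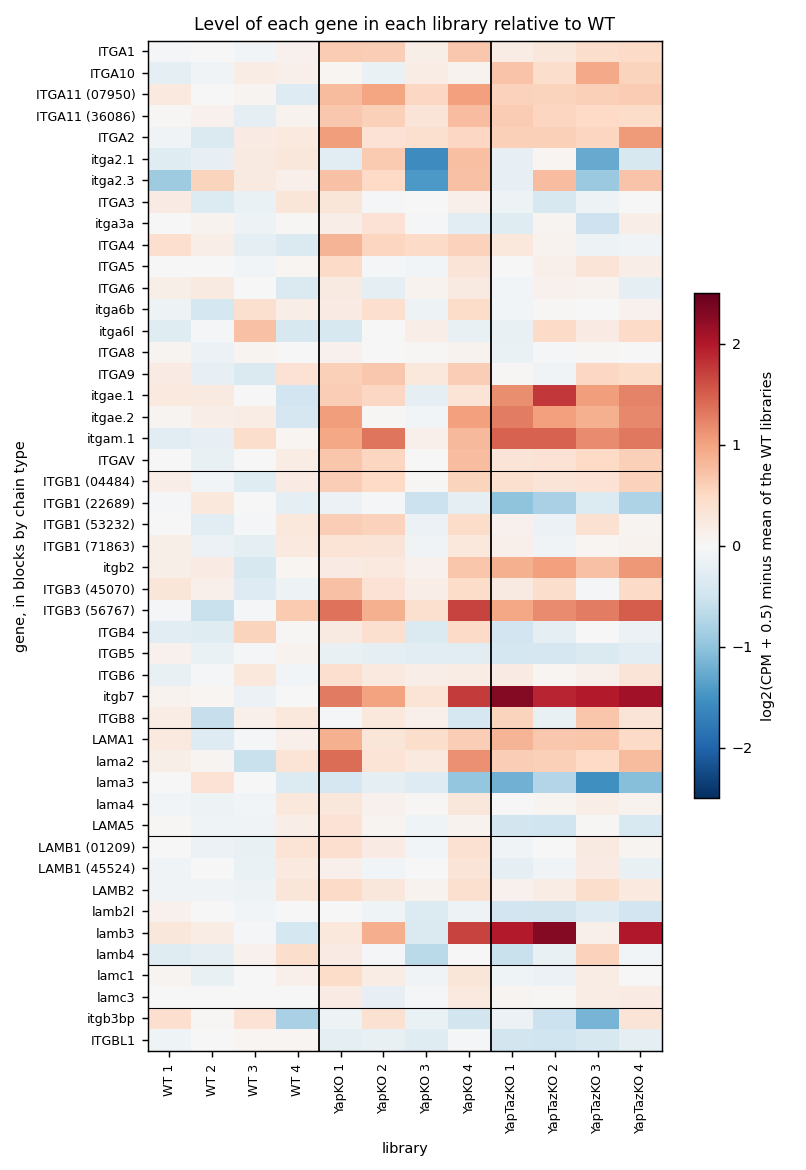
Level of 47 of the tested members in each of the 12 libraries, as log2(CPM + 0.5) minus the mean of the 4 WT libraries, with red for higher and blue for lower and lines between genotypes and chain types. The itgb7 row is red in all YapTazKO libraries (5.13 to 6.9 CPM against 0.873 to 1.11 CPM in WT), while lamb3 is near WT in YapKO 1, YapKO 3 and YapTazKO 3.

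Integrin genes carried by leukocytes rose in YapTazKO: itgb7, itgb2, itgam.1, itgae.1 and itgae.2 all passed the test against WT. The gene itgb7 (ENSDARG00000044318) encodes a beta subunit that pairs with alpha 4 or alpha E on mammalian lymphocytes. Its level was 1.11, 1.05, 0.873 and 1.01 CPM in WT 1 to 4, 3.23, 2.53, 1.41 and 4.58 CPM in YapKO 1 to 4, and 6.9, 5.13, 5.47 and 5.94 CPM in YapTazKO 1 to 4. The 3 groups did not overlap, with WT lowest and YapTazKO highest. All WT libraries lay too low for the count filter, so itgb7 was tested only through the mutant libraries, where it was higher. The log2 fold change against WT was 1.52 ± 0.324 (SE, adjusted p = 0.00838, edgeR) in YapKO and 2.52 ± 0.299 (adjusted p = 1.56e-05) in YapTazKO. Both calls held under all 18 alternatives. YapTazKO was also above YapKO (0.99 ± 0.256, adjusted p = 0.0365), a call lost without any one of YapKO 1, 2 or 3 or YapTazKO 1, 2, 3 or 4 and with the 8 libraries alone, meaning those of the 2 genotypes compared (adjusted p = 0.0543 to 0.106).

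The gene itgb2 (ENSDARG00000016939) encodes the beta subunit shared by the leukocyte integrins. It measured 7.45, 7.77, 4.99 and 6.96 CPM in WT 1 to 4, 7.83, 7.98, 7.3 and 11.2 CPM in YapKO 1 to 4, and 12.8, 14.2, 11.5 and 14.8 CPM in YapTazKO 1 to 4. All YapTazKO libraries lay above all others, while YapKO overlapped WT. It rose in YapTazKO against WT (0.97 ± 0.167, adjusted p = 0.000428) and against YapKO (0.64 ± 0.164, adjusted p = 0.0355). The second call was lost without YapKO 1, 2 or 3 or YapTazKO 1, 2 or 4 (adjusted p = 0.0638 to 0.107). The difference of YapKO from WT did not pass (0.33 ± 0.173, adjusted p = 0.239).

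Of its alpha partners, itgam.1 (ENSDARG00000002956), named for the alpha M subunit of myeloid cells, stood at 1.22, 1.32, 2.37 and 1.68 CPM in WT 1 to 4. It stood at 3.6, 4.82, 1.79 and 3.18 CPM in YapKO 1 to 4 and at 5.32, 5.39, 4.29 and 4.72 CPM in YapTazKO 1 to 4. YapKO 3 lay within the WT range, and every YapTazKO library lay above it. The gene rose in YapTazKO (1.58 ± 0.281, adjusted p = 0.000572). It also rose in YapKO (1.02 ± 0.293, adjusted p = 0.0391), a call lost without WT 1, 2 or 4, YapKO 1, 2 or 4 or YapTazKO 1, 2 or 4 and with the 8 libraries alone (adjusted p = 0.0501 to 0.124).

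The pair itgae.1 and itgae.2 is named for alpha E, which binds E-cadherin in mammals. For itgae.1 (ENSDARG00000098012) WT 1 to 4 stood at 2.0, 1.97, 1.62 and 1.01 CPM, YapKO 1 to 4 at 2.73, 2.53, 1.28 and 2.16 CPM, and YapTazKO 1 to 4 at 4.24, 6.7, 3.84 and 4.45 CPM. The YapTazKO libraries lay above both other groups, which overlapped each other. It rose against WT (1.54 ± 0.279, adjusted p = 0.00065) and against YapKO (1.14 ± 0.269, adjusted p = 0.0242), the latter not past the threshold without YapKO 3, YapTazKO 2 or YapTazKO 4 (adjusted p = 0.05 to 0.1). The gene itgae.2 (ENSDARG00000057787) went from 1.39 ± 0.334 CPM (SD, n = 4) in WT to 2.33 ± 1.15 CPM in YapKO and 3.5 ± 0.47 CPM in YapTazKO. It rose in YapTazKO (1.34 ± 0.321, adjusted p = 0.00519), with no overlap with WT, and its difference in YapKO did not pass (adjusted p = 0.171).

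The remaining alpha subunit of this class followed another order. ITGA4 (ENSDARG00000103056), the alpha 4 subunit, which is known in leukocytes and other cells, stood at 6.67 ± 1.81 CPM in WT, 10.2 ± 1.26 CPM in YapKO and 6.7 ± 0.902 CPM in YapTazKO. Every YapKO library lay above every library of the other groups. It rose in YapKO against WT (0.61 ± 0.18, adjusted p = 0.0444), a call lost in 9 of the 12 fits that left out a library (without WT 2, 3 or 4, YapKO 1, 2 or 4 or YapTazKO 2, 3 or 4), without a filter and with the 8 libraries alone (adjusted p = 0.0524 to 0.144). YapTazKO against YapKO stood at -0.60 ± 0.182 (adjusted p = 0.0768). ITGA9 (ENSDARG00000032435), its close relative, did not pass in YapKO against WT (0.54 ± 0.188, adjusted p = 0.0828), but did with the replicate number added to the model as a block, here called the replicate block (adjusted p = 0.0491).

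Most of the myeloid leukocyte markers tested also rose against WT. The listed markers mpx and lcp1 matched no gene. Of 16 marker genes matched, 14 were tested, and 8 rose in YapKO and 11 in YapTazKO against WT. By edgeR and by DESeq2 0 were lower in both (1 and 0 lower at an unadjusted p under 0.05). The shares called were 57.1% and 78.6%, beside 9.13% and 27.7% of all genes. Most of the 16, and most of those called in YapTazKO, share the symbol MFAP4 or MPEG1 and are not separate markers. The listed gene ptprc (ENSDARG00000071437) did not pass against WT in YapKO (0.52 ± 0.327, adjusted p = 0.343) or YapTazKO (0.84 ± 0.321, adjusted p = 0.0622). In YapTazKO against WT, ptprc passed under 5 of the 18 alternatives. The summed level of the 16 was 80.0 to 96.1 CPM in WT, 102 to 161 CPM in YapKO and 166 to 203 CPM in YapTazKO. None was at 0 in every library and 2 were at 0 in at least 1 library. IRF8 (ENSDARG00000056407), a macrophage transcription factor gene, went from 1.8 ± 0.417 CPM in WT to 4.53 ± 1.47 CPM in YapKO and 9.28 ± 1.45 CPM in YapTazKO. The neutrophil gene lyz (ENSDARG00000057789) took another course and did not pass in any comparison. Its change was -0.55 (adjusted p = 0.0906) in YapKO and 0.15 (adjusted p = 0.609) in YapTazKO against WT. Between the mutants it was 0.7 (adjusted p = 0.0567). In the same order lyz was called under 3, 0 and 8 of the 18 alternatives. The part of these markers in the integrin values was not tested. Thrombocyte markers, of which 2 of 4 were tested, had 0 called by edgeR or DESeq2 in any comparison and 0 at an unadjusted p under 0.05. Their summed level was 13 to 18.8 CPM in WT, 14.6 to 25.3 CPM in YapKO and 14.7 to 19.7 CPM in YapTazKO.

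**Figure D3:**
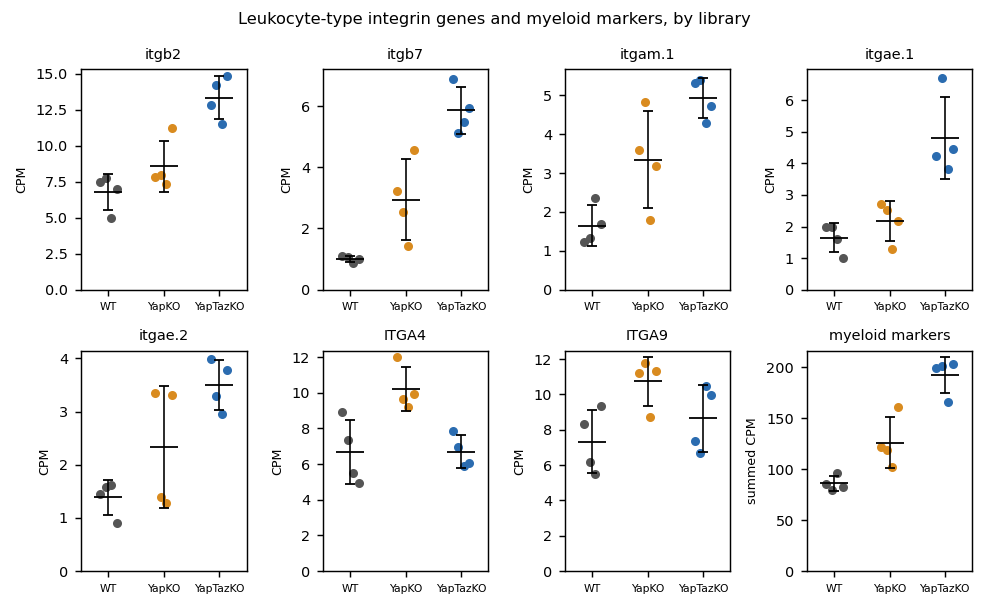
CPM by library (points) with mean ± SD over 4 libraries of 7 integrin genes known from leukocytes, and the summed CPM of 16 myeloid marker genes, in WT, YapKO and YapTazKO. For itgb2, itgb7, itgam.1, itgae.1 and itgae.2 every YapTazKO point lies above every WT point, as in the marker panel (166 to 203 against 80.0 to 96.1), while ITGA4 is highest in YapKO.

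Of 7 genes of the collagen-binding alpha type, 3 rose in YapKO and 5 in YapTazKO against WT. In either mutant 0 fell by edgeR, by DESeq2 or at an unadjusted p under 0.05. The shares called were 42.9% and 71.4%, beside 9.13% and 27.7% of all genes. ITGA1, ITGA2, ITGA10 and both ITGA11 genes rose in YapTazKO, and ITGA1 and both ITGA11 genes also rose in YapKO. These subunits carry an inserted domain that binds collagen and pair with beta 1. ITGA11 (ENSDARG00000036086), known in mammals from fibroblasts, stood at 12.3, 13, 10.2 and 12.9 CPM in WT 1 to 4, 19.6, 18.5, 15.2 and 21.0 CPM in YapKO 1 to 4, and 19.1, 17.7, 17.3 and 16.7 CPM in YapTazKO 1 to 4. All mutant libraries lay above WT and the mutants overlapped each other. The changes were 0.61 ± 0.119 (adjusted p = 0.00465) and 0.55 ± 0.12 (adjusted p = 0.00289), and both held under every alternative. The other ITGA11 gene (ENSDARG00000007950) rose from 2.39 ± 0.453 CPM to 4.65 ± 0.804 CPM in YapKO (0.96 ± 0.2, adjusted p = 0.00749). It reached 3.8 ± 0.103 CPM in YapTazKO (0.67 ± 0.207, adjusted p = 0.024), where the call was lost without WT 2, WT 4 or YapTazKO 4 and with DESeq2 (adjusted p = 0.0511 to 0.0688).

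ITGA10 (ENSDARG00000002507), known from cartilage in mammals, differed from its relatives in being close to WT in YapKO. It measured 16.1, 18.0, 21.9 and 21.1 CPM in WT 1 to 4, 19.8, 17, 21.9 and 20.5 CPM in YapKO 1 to 4, and 31.6, 26.2, 37.3 and 28.6 CPM in YapTazKO 1 to 4. WT and YapKO covered the same range, and all YapTazKO libraries lay above it. It rose in YapTazKO against WT (0.68 ± 0.126, adjusted p = 0.000851) and against YapKO (0.64 ± 0.127, adjusted p = 0.00895). Both calls held under all alternatives, the only call between the mutants that did so among the members.

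ITGA1 (ENSDARG00000074316) rose from 33.4 ± 1.86 CPM in WT to 48.6 ± 7.66 CPM in YapKO (0.54 ± 0.109, adjusted p = 0.00596) and stood at 42.7 ± 3.89 CPM in YapTazKO (0.35 ± 0.11, adjusted p = 0.0245). The YapTazKO call was lost without WT 1, WT 3, YapTazKO 3 or YapTazKO 4 (adjusted p = 0.0596 to 0.0816). ITGA2 (ENSDARG00000062974) stood at 6.11 ± 1.21, 9.47 ± 2.43 and 10.2 ± 1.94 CPM in WT, YapKO and YapTazKO. It rose in YapTazKO (0.73 ± 0.199, adjusted p = 0.0116, but adjusted p = 0.0504 without YapTazKO 4). In YapKO it did not pass (0.63 ± 0.199, adjusted p = 0.0596), though it did with the replicate block (adjusted p = 0.0316), and the libraries did not overlap WT. Its relatives itga2.1 (ENSDARG00000069390) and itga2.3 (ENSDARG00000086838) were not called. They were lowest within both mutants in the libraries numbered 3, with itga2.1 at 0.256 CPM in YapKO 3 and 0.443 CPM in YapTazKO 3 against 1.21 to 3.31 CPM in the other mutant libraries.

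The beta 1 subunit, the shared partner of the collagen-binding, laminin-binding and several other alpha subunits, is represented by 4 genes that moved differently. ITGB1 (ENSDARG00000104484) rose, ITGB1 (ENSDARG00000022689) fell in YapTazKO, and the other 2 were not called. The gene that fell stood at 26.4, 32.2, 26.9 and 22.7 CPM in WT 1 to 4, 24.3, 26.2, 18.3 and 22.9 CPM in YapKO 1 to 4, and 13.2, 15.1, 21.0 and 15.5 CPM in YapTazKO 1 to 4. YapTazKO lay below WT in every library, and YapKO overlapped both. The change in YapTazKO was -0.74 ± 0.149 (adjusted p = 0.00144), held under all alternatives. Against YapKO it was -0.51 ± 0.151 (adjusted p = 0.069). The gene that rose went from 40.3 ± 6.34 CPM in WT to 54.4 ± 9.29 CPM in YapKO (0.43 ± 0.128, adjusted p = 0.0447) and 53.6 ± 4.4 CPM in YapTazKO (0.41 ± 0.128, adjusted p = 0.0252). The YapKO call was lost in 10 of the 12 fits that left out a library (all but those without WT 4 or YapKO 3), with DESeq2's size factors, without a filter and with the 8 libraries alone (adjusted p = 0.0504 to 0.142). The YapTazKO call was lost without WT 2, WT 3 or YapTazKO 4 (adjusted p = 0.0655 to 0.089).

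ITGB1 (ENSDARG00000053232) was at 52.3 ± 8.11, 68.8 ± 15.3 and 56.2 ± 8.71 CPM in WT, YapKO and YapTazKO, and ITGB1 (ENSDARG00000071863) at 71.9 ± 11.5, 82.9 ± 10.9 and 73.3 ± 4.74 CPM. Neither passed in any comparison, though with the replicate block on the 8 libraries alone ENSDARG00000053232 passed in YapKO against WT (0.38, adjusted p = 0.0412). As a share of the counts of the 4 genes, which does not depend on the scaling, ENSDARG00000022689 held 10.5 to 18.2% in WT, 9.51 to 10.6% in YapKO and 6.62 to 9.83% in YapTazKO. ENSDARG00000104484 held 19.0 to 22.1%, 22.6 to 24.7% and 23.9 to 29.2% in the same order. The former was lower in every YapTazKO library than in every WT library and overlapped between the mutants, and the latter was higher in every mutant library than in WT. How reads that match several of these near copies, or the itga2, itgae and itgam copies, were assigned is not stated, so their split is uncertain.

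Among integrin genes of the RGD-binding class, ITGAV and 1 of 2 ITGB3 genes rose in both mutants and ITGB5 fell in YapTazKO. ITGAV (ENSDARG00000006314), the alpha v subunit, which binds vitronectin and fibronectin, went from 148 ± 15.5 CPM in WT to 212 ± 45.5 CPM in YapKO and 201 ± 17.6 CPM in YapTazKO. The changes were 0.52 ± 0.131 (adjusted p = 0.0222) and 0.44 ± 0.131 (adjusted p = 0.0188). The first was lost without WT 1, 2 or 3 or YapKO 1 or 4 and with the 8 libraries alone (adjusted p = 0.0509 to 0.0779), the second without WT 2 or YapTazKO 4 (adjusted p = 0.0601 to 0.0657).

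Of the beta subunits that pair with alpha v, ITGB3 (ENSDARG00000056767) measured 8.01, 5.53, 7.98 and 13.4 CPM in WT 1 to 4, 22.0, 15.7, 11.1 and 27.8 CPM in YapKO 1 to 4, and 16.7, 19.5, 21.0 and 24.6 CPM in YapTazKO 1 to 4. YapTazKO lay above WT throughout, and YapKO 3 lay below WT 4. It rose in YapKO (1.12 ± 0.264, adjusted p = 0.0149) and in YapTazKO (1.21 ± 0.264, adjusted p = 0.00273). The first call was lost without YapKO 1 or YapKO 4 (adjusted p = 0.0502 to 0.0565). The other ITGB3 gene (ENSDARG00000045070) did not pass (0.46 ± 0.198, adjusted p = 0.155, and 0.30 ± 0.202, adjusted p = 0.299).

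ITGB5 (ENSDARG00000012942), another alpha v partner, went the other way. It measured 38.8, 31.7, 34.9 and 38.3 CPM in WT 1 to 4, 31.6, 30.0, 29.3 and 29.4 CPM in YapKO 1 to 4, and 26.4, 26.8, 27.6 and 29.3 CPM in YapTazKO 1 to 4. WT was highest and YapTazKO lowest, and neighbouring groups met without overlapping, at 31.7 and 31.6 CPM between WT and YapKO. It fell in YapTazKO (-0.39 ± 0.0834, adjusted p = 0.00253) and did not pass in YapKO (-0.26 ± 0.0825, adjusted p = 0.0609). The fibronectin receptor gene ITGA5 (ENSDARG00000006353), ITGA8, ITGB6 and ITGB8 were not called in any comparison. For ITGA5 the levels were 24.4 ± 0.721, 27.9 ± 5.4 and 27.4 ± 2.63 CPM in WT, YapKO and YapTazKO.

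**Figure D4:**
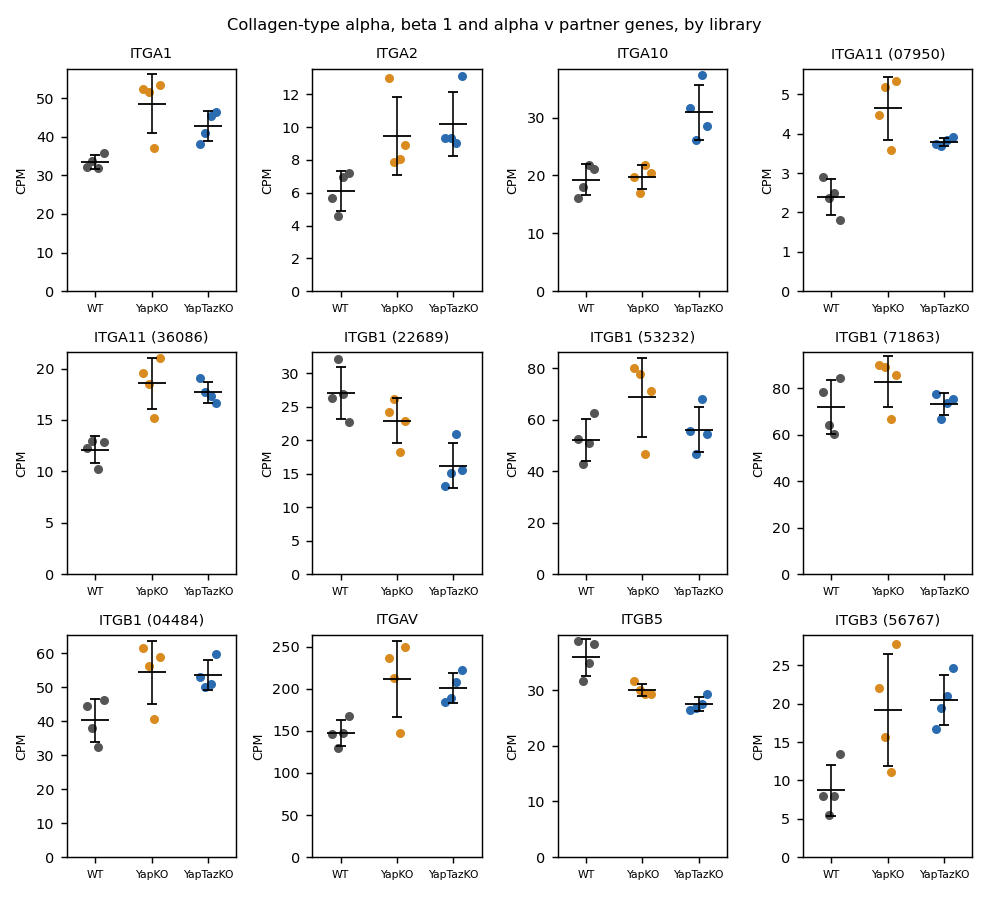
CPM by library (points) with mean ± SD over 4 libraries for the collagen-binding alpha genes ITGA1, ITGA2, ITGA10 and both ITGA11 genes, the 4 ITGB1 genes, ITGAV, ITGB5 and an ITGB3 gene. Numbers in brackets are the last digits of the identifier. ITGA10 is raised in YapTazKO (26.2 to 37.3 CPM against 16.1 to 21.9 in WT), and an ITGB1 gene and ITGB5 are lower there.

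The 6 genes named for the laminin-binding alpha 3 and alpha 6 subunits and for beta 4 had 0 calls in any comparison by edgeR or DESeq2. At an unadjusted p under 0.05 the count was 0 in each mutant against WT and 1, lower, between the mutants. With 9.13% and 27.7% of all genes called against WT, a count of 0 among so few says little about the group. ITGA3, itga3a, ITGA6, itga6b and itga6l encode or are named for alpha 3 and alpha 6, and ITGB4 (ENSDARG00000028507) encodes beta 4, the partner of alpha 6 in hemidesmosomes. ITGB4 stood at 53.2 ± 16.1 CPM in WT, 59.9 ± 14.1 CPM in YapKO and 44.7 ± 6.24 CPM in YapTazKO. Its change in YapTazKO was -0.25 ± 0.192 (adjusted p = 0.357). The alpha 6 gene itga6b (ENSDARG00000069946) stood at 61.6 ± 15.4, 71.7 ± 12.5 and 60.7 ± 2.88 CPM. Within WT these 2 genes ranged from 41.5 to 76.1 CPM and from 44.1 to 79.9 CPM, with WT 3 highest for both.

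Laminin genes were called in both directions. Of 14 chain genes 2 rose and 0 fell in YapKO (4 and 1 at an unadjusted p under 0.05, 3 and 0 with DESeq2), and 3 rose and 2 fell in YapTazKO. The share called was 14.3% in YapKO, beside 9.13% of all genes, and 35.7% in YapTazKO, beside 27.7%, so that both lay near the background. None was called between the mutants by edgeR, where 1 was higher and 4 lower at an unadjusted p under 0.05 and DESeq2 called 0 and 2. Their summed level was 700.1 to 864 CPM in WT, 720.2 to 968 CPM in YapKO and 706 to 852 CPM in YapTazKO, so that the groups overlapped. The summed level of the 34 integrin genes was 662 to 800 CPM in WT, 706 to 1007 CPM in YapKO and 802 to 901 CPM in YapTazKO, where all YapTazKO libraries lay above WT.

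Among alpha chains LAMA1 rose in both mutants, lama2 rose in YapKO and lama3 fell in YapTazKO. LAMA1 (ENSDARG00000102277), the chain of the embryonic laminin that is known from the notochord and eye of the fish, stood at 13.2, 8.69, 10.7 and 12.1 CPM in WT 1 to 4, 21.0, 13.8, 15.2 and 17.2 CPM in YapKO 1 to 4, and 20.5, 17.9, 18.3 and 15.5 CPM in YapTazKO 1 to 4. Both mutants lay above WT in every library. It rose in YapKO (0.58 ± 0.153, adjusted p = 0.0267) and in YapTazKO (0.68 ± 0.152, adjusted p = 0.00321). The YapKO call was lost without WT 2, WT 3, YapKO 1 or YapKO 4 and with the 8 libraries alone (adjusted p = 0.0584 to 0.102).

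The gene lama2 (ENSDARG00000099390), the main alpha chain of muscle basement membrane, went from 6.06 ± 1.59 CPM in WT to 11.1 ± 4.54 CPM in YapKO (0.87 ± 0.252, adjusted p = 0.0412). That call was lost without WT 1, 2 or 3, YapKO 1 or 4 or YapTazKO 1, 2, 3 or 4 and with the 8 libraries alone (adjusted p = 0.0516 to 0.159). In YapTazKO it stood at 9.4 ± 0.817 CPM and did not pass (0.63 ± 0.257, adjusted p = 0.0813), though all 4 libraries lay above WT. It passed there with the replicate block (adjusted p = 0.0168), with the 8 libraries alone (adjusted p = 0.023) and with both (adjusted p = 0.0106). The summed level of 10 skeletal muscle marker genes was 14995 to 17645 CPM in WT, 19517 to 22441 CPM in YapKO and 20809.8 to 28314 CPM in YapTazKO. Of these 10, 2 rose and 0 fell in YapKO, and 4 rose and 0 fell in YapTazKO, beside 9.13% and 27.7% of all genes called. DESeq2 called 4 and 3 higher and 0 lower. Among so few genes these counts say little about the group. Most of the difference in the sum lay in the creatine kinase genes, with ckma (ENSDARG00000035327) at 3907 CPM in WT and 8782 CPM in YapTazKO and ckmb (ENSDARG00000040565) at 4011 and 7871 CPM. The myosin gene myhz2 (ENSDARG00000012944) stood at 1707 CPM in WT and 1867 CPM in YapTazKO and was not called. The markers' part in the lama2 values was not tested.

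The gene lama3 (ENSDARG00000071462) is named for the alpha chain of epithelial laminin 332. It measured 15.7, 20.5, 15.8 and 12.5 CPM in WT 1 to 4, 11.7, 13.4, 12.7 and 7.88 CPM in YapKO 1 to 4, and 6.66, 9.33, 5.17 and 7.29 CPM in YapTazKO 1 to 4. YapTazKO lay below WT in every library, and YapKO overlapped both groups. It fell in YapTazKO (-1.17 ± 0.2, adjusted p = 0.000415), held under all alternatives. In YapKO it did not pass (-0.49 ± 0.188, adjusted p = 0.112), while it did with the replicate block (adjusted p = 0.0298). The widely expressed alpha 4 and alpha 5 chain genes were not called. LAMA5 (ENSDARG00000058543), whose product is known from the fin fold of the fish, stood at 82.1 ± 7.22, 88.4 ± 12 and 66.0 ± 12.2 CPM in WT, YapKO and YapTazKO. Its adjusted p was 0.0607 in YapTazKO against WT and 0.0581 against YapKO, and 0.00596 and 0.00959 without YapTazKO 3.

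The beta chain gene named for laminin 332, lamb3, rose in YapTazKO, where lama3 fell. The gene lamb3 (ENSDARG00000059369) measured 0.89, 0.79, 0.623 and 0.337 CPM in WT 1 to 4, 0.87, 1.65, 0.384 and 3.18 CPM in YapKO 1 to 4, and 3.99, 5.13, 0.739 and 4.05 CPM in YapTazKO 1 to 4. YapTazKO 3 lay within the WT range, and the other 3 YapTazKO libraries lay above all WT and YapKO libraries. WT 4 and YapKO 3 were at or near the floor of 3 counts. It rose in YapTazKO (2.39 ± 0.572, adjusted p = 0.00515), and at 2.71 without YapTazKO 3. All WT libraries lay too low for the count filter, so lamb3 was tested only through mutant libraries, where it was higher.

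Epidermal marker genes were measured beside these chains. Of 8 matched genes 3 rose and 0 fell in YapKO (4 and 0 at an unadjusted p under 0.05, 3 and 0 with DESeq2). In YapTazKO 4 rose and 1 fell (37.5% called in YapKO and 62.5% in YapTazKO, beside 9.13% and 27.7% of all genes). Their summed level was 7770.3 to 11034 CPM in WT, 9968 to 12029.6 CPM in YapKO and 8867 to 15165 CPM in YapTazKO, with the highest value in YapTazKO 3. The adhesion gene cdh1 (ENSDARG00000102750) rose in YapTazKO (1.04 ± 0.107, adjusted p = 3.62e-06), while the keratin gene krt5 (ENSDARG00000058371) fell (-0.76 ± 0.219, adjusted p = 0.016), a call lost in 3 fits that left out a library. For krt5, YapTazKO 3 stood at 2003 CPM, within the WT range of 1667 to 2336 CPM, and the other 3 YapTazKO libraries at 786 to 975 CPM. Their part in the values of lama3 and lamb3 was not tested.

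A laminin beta gene also fell in YapTazKO. The gene lamb2l (ENSDARG00000033950), a relative of the beta 2 chain gene, measured 52.3, 47.9, 45.9 and 47.9 CPM in WT 1 to 4, 48.3, 45.0, 38.2 and 44.1 CPM in YapKO 1 to 4, and 34.9, 35.1, 38.6 and 34.4 CPM in YapTazKO 1 to 4. All YapTazKO libraries lay below WT. It fell in YapTazKO (-0.44 ± 0.0838, adjusted p = 0.000953), held under all alternatives. The beta 2 chain gene LAMB2 (ENSDARG00000002084) was at 62.8 ± 9.78, 77.8 ± 8.83 and 74.2 ± 7.5 CPM and was not called, though it passed in YapKO with the replicate block on the 8 libraries alone (0.31, adjusted p = 0.0193). Both LAMB1 genes, lamb4, lamc1 and lamc3 were not called. The gene lamc1 (ENSDARG00000036279), the gamma chain of most laminins, stood at 171 ± 16.1 CPM in WT and 169 ± 17.6 CPM in YapTazKO (-0.02 ± 0.11, adjusted p = 0.926).

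**Figure D5:**
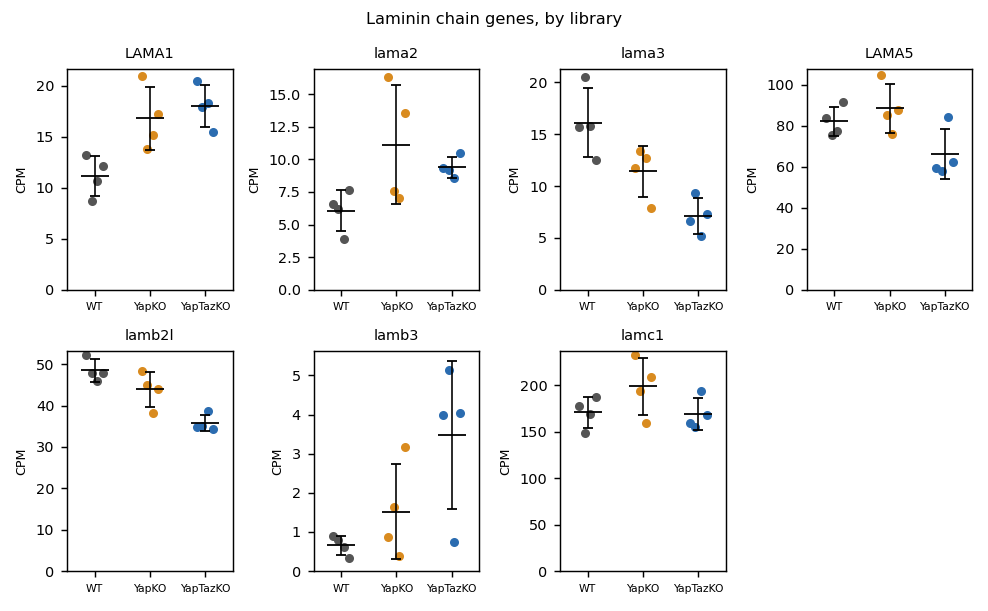
CPM by library (points) with mean ± SD over 4 libraries for 7 of the 14 laminin chain genes. In YapTazKO lama3 and lamb2l lie below WT and LAMA1 above it, while for lamb3 YapTazKO 3 (0.739 CPM) lies apart from the other 3 libraries.

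Of the 2 genes that encode no subunit, ITGBL1 (ENSDARG00000040985) fell in YapTazKO. It measured 37.0, 39.9, 40.9 and 41.0 CPM in WT 1 to 4, 33.4, 35.0, 32.1 and 38.9 CPM in YapKO 1 to 4, and 28.8, 27.9, 29.9 and 33.7 CPM in YapTazKO 1 to 4. YapTazKO did not overlap WT, and YapKO overlapped both. The change was -0.40 ± 0.0864 (adjusted p = 0.00252). The gene itgb3bp (ENSDARG00000097493) was not called.

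Partners of these receptors and chains were read from 4 lists. Among integrin ligand genes 8 rose and 1 fell of 24 tested in YapKO (37.5% called, beside 9.13% of all genes), and 9 rose and 5 fell in YapTazKO (58.3%, beside 27.7%). The 3 with the smallest p were the fibrinogen genes FGB (ENSDARG00000008969), FGG (ENSDARG00000037281) and fga (ENSDARG00000020741), liver products that bind the beta 3 and alpha M integrins in mammals. In YapTazKO against WT they rose by 1.73 ± 0.102 (adjusted p = 2.04e-08), 1.64 ± 0.0989 (adjusted p = 2.52e-08) and 1.62 ± 0.116 (adjusted p = 1.08e-07) on the log2 scale. Of 4 liver marker genes 0 rose and 2 fell in each mutant against WT (50.0% called, beside 9.13% and 27.7% of all genes). Their summed level was 4694 to 5090.4 CPM in WT, 3468 to 5094 CPM in YapKO and 3468 to 4054 CPM in YapTazKO. The part of the liver markers in the fibrinogen values was not tested. Among the other genes of the basement membrane 1 rose and 0 fell of 22 in YapKO (4.55% called, beside 9.13% of all genes). There 3 were higher and 3 lower at an unadjusted p under 0.05, and DESeq2 called 1 and 0. In YapTazKO 1 rose and 10 fell (50.0% called, beside 27.7% of all genes). Between the mutants 1 rose and 5 fell (27.3% called, beside 4.18% of all genes). The 3 leading genes were collagens: COL4A4 (ENSDARG00000002831) fell by 1.58 on the log2 scale in YapTazKO (SE 0.201, adjusted p = 2.94e-05), col15a1b (ENSDARG00000061848) by 0.59 (SE 0.0854, adjusted p = 9.35e-05) and col4a3 (ENSDARG00000003395) by 1.42 (SE 0.205, adjusted p = 9.61e-05).

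Inside the cell, 4 of 35 focal adhesion genes rose and 0 fell in YapKO (12 and 0 at an unadjusted p under 0.05, 4 and 0 with DESeq2), and 9 rose and 2 fell in YapTazKO. The shares called, 11.4% and 31.4%, lay near the 9.13% and 27.7% of all genes. Among those that rose in YapTazKO, PTK2B (ENSDARG00000022841) and VASP (ENSDARG00000099690) lay too low for the count filter in all WT libraries. Both were tested only through mutant libraries, where they were higher. Paxillin PXN (ENSDARG00000088590), an adaptor at the integrin tail, rose in YapKO (0.48 ± 0.0923, adjusted p = 0.00423) and YapTazKO (0.53 ± 0.0924, adjusted p = 0.000476). The adaptor gene NEDD9 (ENSDARG00000089878) rose in YapTazKO (0.63 ± 0.11, adjusted p = 0.000516), and the filamin gene flnb (ENSDARG00000092281) fell there (-0.73 ± 0.161, adjusted p = 0.00283). Of 8 hemidesmosome genes 1 rose and 0 fell in YapKO (3 and 1 at an unadjusted p under 0.05, 2 and 0 with DESeq2). In YapTazKO 0 rose and 2 fell (0 and 2 at an unadjusted p under 0.05), and DESeq2 called 0. The shares called, 12.5% and 25.0%, lay near the 9.13% and 27.7% of all genes. The collagen XVII gene col17a1a (ENSDARG00000069415) stood at 213 ± 49.4 CPM in WT and 125 ± 68.7 CPM in YapTazKO (-0.77 ± 0.257, adjusted p = 0.0346), a call lost in 5 fits that left out a library. It stood at 228 CPM in YapTazKO 3 and at 88.7 to 94.2 CPM in the other 3. The plectin gene plecb (ENSDARG00000021987) rose in YapKO (0.44 ± 0.129, adjusted p = 0.0457). CD151 (ENSDARG00000068629) fell in YapTazKO (-0.24 ± 0.0841, adjusted p = 0.046). They lost these calls in 9 and 8 of the fits that left out a library. The other CD151 gene (ENSDARG00000038288) did not pass in YapKO (0.49 ± 0.148, adjusted p = 0.0506), where it lay wholly above WT. Nor did it pass in YapTazKO (0.04 ± 0.153, adjusted p = 0.883).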

How the data were processed

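Per the labels' protocols, polyA RNA of larvae was extracted with Trizol and columns and sequenced on an Illumina HiSeq. Per the submitters' processing notes STAR 2.3.0e and HTSeq 0.6.0 were used. No source consulted names the genome build, the annotation, the strand setting or how reads with several matches were counted. The deposited values are unnormalized read counts for each Ensembl identifier. A supplied name list put symbols on 22531 of 25473 identifiers and often omits the paralogue letter. Of the members, 10 share 4 symbols and are told apart by identifier.

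Genes were filtered with filterByExpr (minimum count 10, total 15), scaled by TMM and fitted with edgeR 4.0.16 (R 4.3.3, quasi-likelihood, 1 coefficient per genotype, all 12 libraries). P-values were two-sided and adjusted by Benjamini-Hochberg over all 19493 genes tested. Fold changes are log2 ± SE, levels are CPM on the TMM-scaled library size ± SD, and CPM is not comparable between genes of different length. The fit was tested on simulated data. DESeq2 1.42.0 was an alternative.

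All called members are named, save 1 that is counted but not reported here, the 14 with the smallest p with every library's value, and of each partner list the 3 with the smallest p among those called. Members and lists were chosen with earlier results of these data known. Of 154 list symbols 14 matched no gene. Replicates differed by more than counting noise in every group (chi-square per degree of freedom 3.22 to 9.45). As nothing says which larvae made a library, a p-value reflects the spread among the libraries, which may be technical.

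The titles number libraries 1 to 4 in each genotype. Deviations from the group mean correlated across genes at 0.18, 0.306, 0.282 and 0.388 between same-numbered WT and YapKO libraries. Each of these lay over 0.1, the threshold set for a check of pairing. Correlations between differently numbered libraries were not computed. The values over 0.1 lean towards pairing of WT and YapKO libraries by number, without settling it. As the labels do not say that the numbers pair libraries, the main fit held no block, and the replicate block was run as an alternative. In the other comparisons the values were 0.166, 0.103, 0.0717 and -0.00482 for WT with YapTazKO, and 0.0512, -0.00323, 0.0648 and 0.0206 between the mutants.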

Additional observations from a re-analysis of the deposited data

Results flagged for a closer look

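Within groups of 4 libraries, 6 of 144 groups of member values held a library whose gap to the nearest other, as a share of the group's range, passed Dixon's critical value at 95%, and chance gives about 1 in 20. LAMB2 and lama4 stood at 77.5 and 119 CPM in WT 4, where the other WT libraries were at 57.0 to 58.6 and 90.6 to 94.2 CPM. In YapTazKO 3, lamb2l and LAMA5 stood at 38.6 and 84.1 CPM, where the others were at 34.4 to 35.1 and 58.0 to 62.4 CPM. ITGA2 stood at 13.1 CPM in YapTazKO 4 against 9.02 to 9.33 CPM in the others. ITGA1 stood at 37.1 CPM in YapKO 3 against 51.6 to 53.3 CPM in the others.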

How the results depend on the processing

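Of 36 calls of a member in a comparison, 16 were lost under at least 1 alternative. The other 20 held, 19 of them under all 18 alternatives and lamb3 in YapTazKO against WT under the 16 in which it was tested. A further 16 pairs of member and comparison were called under at least 1 alternative only, and 0 values of either kind changed sign. In YapKO against WT the 1780 genes called became 2758 with the replicate block, 1163 with the 8 libraries alone, 3380 with both, and 942 to 3041 without single libraries. The 11 members called became 6 with the 8 libraries alone, 17 with these and the replicate block, and 4 to 17 without single libraries. In this comparison the block on all 12 libraries called 15 members, with ITGA9, ITGA2 and lama3 among those added, and ended no member's call. Between the mutants the 814 genes became 1443 with the replicate block and 441 to 1087 without single libraries, and the 4 members became 9 with the block, 7 with DESeq2 and 1 to 5 without single libraries. In YapTazKO against WT no alternative moved either count by over 1.5 times. Genes of few counts, such as lamb3 and itgam.2, are limited by depth. This also holds for itgb7, itgam.1, itgae.1 and itgae.2, whose lowest counts in a library were 7, 10, 9 and 8.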
